A study of Homo sapiens with 12 samples.

Results

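The effect of a miR1908-5p inhibitor on the transcriptome of HuH-7 cells was examined by comparing arrays of inhibitor-treated cells with arrays of cells given the matching inhibitor control. The comparison uses every array titled Inhibitor repeat 1 to 3 or Inhibitor ctl repeat 1 to 3, which is 6 of the 12 arrays in the series. HuH-7 is an established human hepatoma line grown in low-glucose medium with serum. The inhibitor is a synthetic hairpin oligonucleotide that binds miR1908-5p, and its control is the matching control oligonucleotide coupled to the dye Dy547. Both were delivered by lipid transfection for 72 h, at 9 nM by the sample labels, while the methods state a slightly higher concentration. The remaining 6 arrays hold cells given a miR1908-5p mimic or the mimic control under the same conditions. They entered the model for its estimate of spread and are otherwise cited only beside a result. The 4 treatments were run on 3 separate occasions, so each group has n = 3 and arrays with the same repeat number share an occasion. All groups are the same cell line. Untreated cells were not analysed here, nor was the study's own measurement of miR1908-5p after inhibitor treatment.

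MicroRNAs guide Argonaute proteins to messenger RNAs that pair with the seed, the bases near the 5′ end of the small RNA. Pairing usually lowers the level or the translation of the message, and a hairpin inhibitor sequesters the microRNA so that its targets are released. MIR1908 lies within FADS1, which encodes a desaturase of polyunsaturated fatty acids that the liver expresses.

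The sequences of the targeted arm, of the opposite arm, and of the other mature microRNAs that carry the same seed are shown because an inhibitor acts by base pairing. Bases 2 to 8, the seed, are in capitals, and the sequences are from RefSeq (GRCh38.p14).
hsa-miR-1908-5p: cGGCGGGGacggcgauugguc
hsa-miR-1908-3p: cCGGCCGCcggcuccgccccg
hsa-miR-6787-5p: uGGCGGGGguagagcuggcugc
hsa-miR-663a: aGGCGGGGcgccgcgggaccgc
hsa-miR-10396b-5p: cGGCGGGGcucggagccggg
The targeted arm is 21 bases long and lies at chr11:61815209-61815229 on the minus strand, within the span of FADS1 at chr11:61799627-61817003. Of 2370 mature human microRNAs in the table, 4 share the seed GGCGGGG, miR-1908-5p among them.

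Few probe sets separated the inhibitor from its control, and for 46589 of 53617 the 95% interval of the difference lay within a doubling or halving (86.89%). Differences are given as the inhibitor mean minus the inhibitor control mean on the log2 scale of the deposited values, so that 1 is a doubling. They were tested in limma over all 53617 probe sets with Benjamini-Hochberg adjustment. At an adjusted p under 0.05 a single probe set was called, which is 0.00187% of those tested. At an unadjusted p under 0.05 there were 1567 (2.92%), of which 749 were higher (1.4%) and 818 lower (1.53%) with the inhibitor. The threshold itself would pass 5% of probe sets if no group differed and all arrays varied independently. Deviations of same-numbered arrays from their group means correlated at 0.225, 0.0981 and 0.275, which the unpaired model does not take into account. The unpaired shares are therefore not to be read against 5%. With the repeat number as a block, which compares arrays of the same occasion, the unadjusted count was 2418 (4.51%) and no probe set passed the adjusted threshold. Without inhibitor control replicate 1 the unadjusted count was 2478, and it ranged down to 1070 without repeat 2.

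The probe set called after adjustment has no gene name in the annotation used here and a mean level of 3.10. It read 4.23, 4.32 and 4.54 with the inhibitor and 2.78, 2.42 and 2.77 with the control. The groups did not overlap, and the difference was 1.71 (standard error 0.17, 95% interval 1.33 to 2.09, adjusted p = 0.0299). With the repeat block its adjusted p was 0.0926. The same probe set was 0.88 higher with the mimic than with the mimic control. The adjusted count was 0 when any 1 of the 12 arrays was left out, except mimic replicate 3, without which it was 1, and mimic control replicate 1, without which it was 2. Its identifier lies below the lowest one that the platform annotation names. Such probe sets make up 6.67% of the array (3575) and 16.3% of the unadjusted calls.

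Probe sets were then separated by level, with those at a 12-array mean of 6 or more called bright and the rest dim. Of 16056 bright probe sets, 134 (0.835%) passed the unadjusted threshold, 63 higher (0.392%) and 71 lower (0.442%). Among 37561 dim ones there were 1433 (3.82%). With the repeat block the bright count was 312 (1.94%), of which 131 (0.816%) were lower, and the dim count 2106 (5.61%). The lowest adjusted p of a bright probe set was 1.0 in the unpaired model and 0.978 with the block. The share called fell steadily with level, from 5.29% below a mean of 3 to 0.418% at 10 or above. The bright count depended on single arrays: it was 417 without inhibitor control replicate 1, 202 without inhibitor replicate 2, 75 without inhibitor control replicate 2, and 59 without repeat 2.

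**Figure D1:**
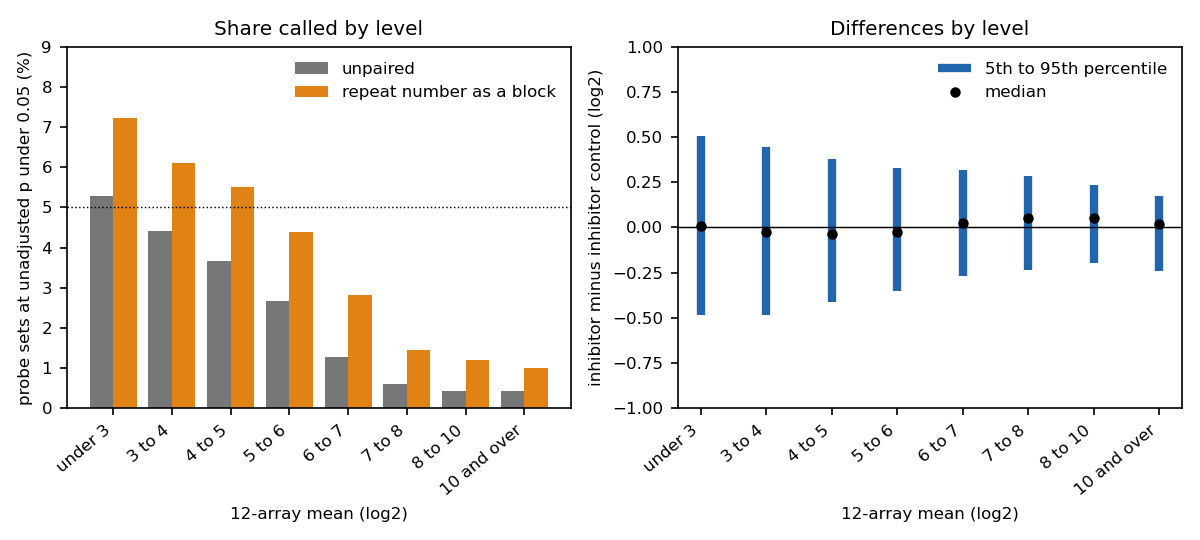
Share of probe sets at an unadjusted p under 0.05 (left, percent, dotted line at 5%) and the spread of differences between inhibitor and inhibitor control (right, log2, bars from the 5th to the 95th percentile, points at the median) by 12-array mean level. The share falls from 5.29% to 0.418% unpaired and from 7.22% to 1.0% with the repeat block, and the medians stay within 0.053 of 0. The dotted line assumes arrays that vary independently, which the unpaired shares do not meet.

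The intervals bound the size of the bright differences. The median absolute difference was 0.0962, and 95% of bright probe sets differed by less than 0.344. The 95% interval lay wholly within a doubling or halving for 14881 bright probe sets (92.68%) and within a 1.5-fold change for 9994 (62.24%). Of 6852 bright probe sets for protein-coding genes, 96.15% had an interval within a doubling and none had a difference beyond it. These protein-coding probe sets leaned upward, with a median of 0.056 and 69.1% of them above 0. Scaling moved shifts of this size in both directions, the median over all bright probe sets being 0.039 as deposited, 0.068 with the arrays at a common median and 0.011 after a further quantile normalization. The common median also moved the median of all probe sets from 0.0013 to 0.031, and the share of unadjusted calls that were higher from 47.8% to 56.9%. Among bright calls that share was 47.0%, and it was 56.3% at a common median and 38.6% after the quantile normalization.

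The 3 occasions gave little common pattern. Across bright probe sets the difference on occasion 1 correlated with that on occasion 2 at r = -0.0498 and with that on occasion 3 at r = 0.0452, while occasions 2 and 3 correlated at r = 0.29. These values are across probe sets, which are not independent replicates. The SD of the differences was 0.195 on occasion 1, 0.313 on occasion 2 and 0.275 on occasion 3. Differences had the same sign on all 3 occasions for 4844 bright (30.2%) and 9866 dim probe sets (26.3%). Signs that vary at random also agree on all 3 occasions for a share of probe sets, so these are not counts of responses. Groups did not overlap for 827 bright (5.15%) and 3464 dim probe sets (9.22%).

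The microRNA locus itself gave no call. The probe set named MIR1908 read 6.85, 6.98 and 6.91 with the inhibitor and 6.79, 7.10 and 7.02 with the control, so the groups overlapped. The difference was -0.06 (standard error 0.16, 95% interval -0.41 to 0.30, adjusted p = 1.0), and the files do not say whether this probe set reads the precursor or the mature strand. FADS1 differed by -0.03 (-0.36 to 0.30) and FADS2, the neighbouring desaturase gene, by -0.05 (-0.50 to 0.40). None of the 9 genes of the locus was called, with a median of -0.029.

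Genes with predicted miR1908-5p sites address whether blocking the microRNA raises its candidate targets. Of the 20 genes with the top-ranked sites in the study's own table, 11 had a named probe set, none was called in either model, and 10 of the 11 lay below 0. Their median was -0.071, against 0.0013 over all probe sets and 0.039 over bright ones, and every interval was within a doubling. STK11, which encodes LKB1, the kinase that activates AMPK, read 7.25, 7.58 and 7.29 with the inhibitor and 7.27, 7.46 and 7.70 with the control. Its difference of -0.10 (-0.46 to 0.26) was within the spread of the repeats. EEF1A2, a translation elongation factor, gave the lowest value of the list at -0.27 (-0.58 to 0.04). Its groups did not overlap, at 5.81, 6.10 and 5.93 against 6.28, 6.14 and 6.24. This held for 1 of the 11 genes, beside 5.15% of all bright probe sets. FKBP8, an anti-apoptotic immunophilin of the mitochondrial membrane, differed by -0.24 (-0.68 to 0.19) with the inhibitor and by -1.39 with the mimic.

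The genes that had been called with the mimic in an earlier look at these data were examined for a response in the opposite direction. None of the 12 was called with the inhibitor. Their median was 0.11 with the inhibitor and -1.2 with the mimic, and for 10 of 12 the inhibitor interval stayed within a doubling. With the inhibitor 8 lay above 0 and 4 below, beside a median of 0.056 and 69.1% above 0 over bright protein-coding probe sets. Of the 8, NSF and FST were higher with the mimic too. The 4 below 0, FKBP8, CLSTN1, HSPB1 and DDA1, were lower with the mimic too. ILK, an adaptor kinase between integrins and actin, read 9.24, 9.28 and 9.20 with the inhibitor and 9.14, 9.18 and 9.06 with the control. These ranges did not overlap, yet the difference was only 0.11 (-0.20 to 0.42). SRM, spermidine synthase, read 10.44, 10.42 and 10.31 against 10.15, 10.24 and 10.14, a difference of 0.22 (-0.26 to 0.69) that was likewise not called. AATF, a nucleolar protein of ribosome maturation, differed by 0.14 (-0.27 to 0.55). ILK, SRM and AATF were the 3 of the 12 whose groups did not overlap, beside 5.15% of all bright probe sets. DDA1, a component of cullin ubiquitin ligases, had an interval from -0.32 to 0.32. FST, which encodes the activin antagonist follistatin, was higher with both oligonucleotides, by 0.25 (-0.08 to 0.58) with the inhibitor and by 1.28 with the mimic. The widest intervals were those of CYP2B6, a drug-metabolizing cytochrome, and CREB3L3, a liver transcription factor, at -0.44 to 1.18 and -0.67 to 1.26.

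**Figure D2:**
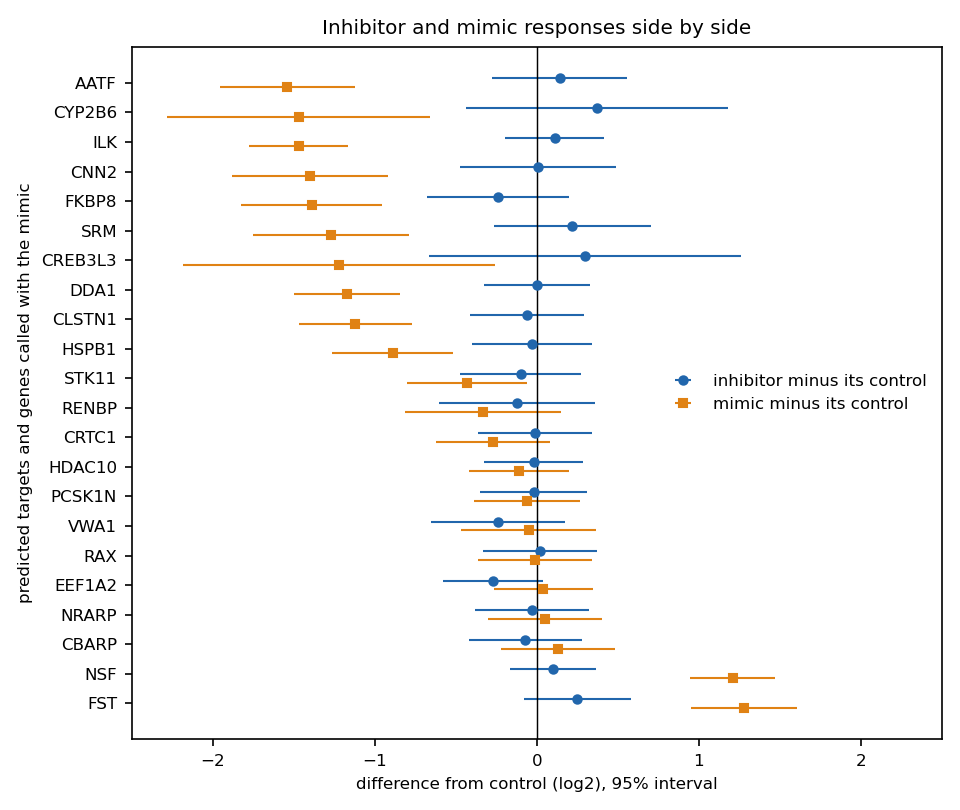
Difference from the matching control (log2) with its 95% interval for the inhibitor (circles) and the mimic (squares), for 11 predicted targets and the genes called with the mimic, n = 3 arrays in each group. Every inhibitor interval covers 0, whereas mimic values reach from -1.54 for AATF to 1.28 for FST.

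The energy-sensing and metabolic lists gave no calls. In the LKB1-AMPK list none of 16 named genes was called, with a median of 0.092 and 12 of 16 above 0, beside 69.1% above 0 over bright protein-coding probe sets. The highest was PRKAB2, a regulatory subunit of AMPK, at 0.21 (standard error 0.21). None of 25 genes of the PI3K-AKT-mTOR list was called, and MTOR differed by 0.07 (-0.21 to 0.36). None of 9 NADPH-forming or pentose phosphate enzymes was called. ME1, the cytosolic malic enzyme, read 10.10, 10.33 and 9.67 against 10.16, 10.23 and 9.41, a difference of 0.10 (-0.52 to 0.72) with occasion 3 low in both groups. No gene was called among 17 of cholesterol synthesis, 22 of fatty acid synthesis and storage, 12 of glycolysis and gluconeogenesis, 15 of the stress response, 34 of the cell cycle, 11 metallothioneins or 19 of the microRNA machinery.

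Transcripts of the TGF-beta and BMP signalling list leaned upward without calls in the unpaired model. The list mixes ligands with antagonists such as FST (0.25), and signalling itself was not measured. Of 20 named members 18 lay above 0, with a median of 0.12, against a median of 0.056 and 69.1% above 0 over bright protein-coding probe sets. BMP4, a secreted morphogen, read 8.02, 7.53 and 7.75 with the inhibitor and 7.76, 6.86 and 7.08 with the control. It was higher on each occasion although the groups overlapped, and the difference of 0.53 (-0.05 to 1.11) passed an unadjusted p under 0.05 only with the repeat block. BMP2, its close relative, differed by 0.32 (-0.13 to 0.78). In the autophagy list 1 of 24 genes was called, near the 2.92% called over all probe sets and the 3.82% over dim ones, and it was the dim MAP1LC3B, whose product LC3B coats autophagosome membranes. It read 5.87, 6.44 and 6.11 against 5.87, 5.57 and 5.75, a difference of 0.41 whose call was absent without inhibitor replicate 2 or 3, without inhibitor control replicate 2 or 3, and without mimic replicate 2 or mimic control replicate 1 or 2. Its relatives GABARAP and MAP1LC3A differed by 0.14 and -0.15. Among 24 genes of interferon and nucleic acid sensing none was called, and IFIH1, the double-stranded RNA sensor MDA5, was 0.39 higher (standard error 0.27) and passed only with the block.

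Structural RNAs had the lowest median of the 19 lists. They include the RNA cores of processing enzymes and the small Cajal body RNAs (scaRNAs), which guide the modification of spliceosomal RNAs. Vault RNAs, the spliceosomal RNAs RNU12 and RNU5A-1 and the telomerase RNA are also in the list. Of 27 named members 20 were bright. At an unadjusted p under 0.05, 7 of the 27 were lower and none higher, beside 1.53% of all probe sets and 0.442% of bright ones lower. In direction 22 of 27 lay below 0, with a median of -0.33. None passed the adjusted threshold. RPPH1, the RNA of ribonuclease P, which trims transfer RNA precursors, read 6.64, 7.09 and 6.96 with the inhibitor and 7.33, 7.91 and 7.70 with the control. The groups did not overlap, and the difference of -0.75 (-1.15 to -0.35, adjusted p = 1.0) came from -0.69, -0.81 and -0.74 on the 3 occasions. In all, 2 of the 27 had groups without overlap, beside 5.15% of bright and 9.22% of dim probe sets. VTRNA2-1, a small polymerase III transcript that binds the kinase PKR, read 7.11, 8.0 and 7.33 against 7.74, 8.50 and 8.60, and SCARNA8 read 6.86, 7.93 and 7.28 against 7.30, 8.72 and 8.71. Both sets overlapped, at differences of -0.80 (-1.39 to -0.22) and -0.88 (-1.72 to -0.04). SCARNA4 (-0.50), SCARNA3 (-0.48), SCARNA7 (-0.41) and the dim RNU5A-1 of the spliceosome (-0.76) were the other calls. TERC, the telomerase RNA, differed by -0.50 and RMRP, the RNA of the related ribonuclease MRP, by -0.27, neither being called in the unpaired model. With the repeat block 8 RNAs were called lower, TERC and SCARNA12 being added and SCARNA3 lost. SCARNA9 was the highest at 0.30.

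The inhibitor control arrays stood high for these RNAs. Over the 20 bright members the median deviation from each RNA's 12-array mean was 0.619 and 0.519 on inhibitor control arrays 2 and 3, and -0.041 on inhibitor control array 1. It was -0.223, 0.248 and -0.037 on the inhibitor arrays and between -0.24 and 0.003 on the 6 mimic and mimic control arrays. The inhibitor control was the highest of the 4 groups for 20 of the 27 RNAs and for 6 of the 7 called. The list median was 0.18 for mimic against mimic control, 20 of the 27 RNAs were lower with the inhibitor and higher with the mimic, and the mimic control was the lowest group for 22. The count of 7 changed to 2 without inhibitor replicate 1, to 3 without inhibitor replicate 3 or without inhibitor control replicate 2 or 3, to 11 without inhibitor replicate 2 and to 14 without inhibitor control replicate 1. Leaving out an array of the other arms moved it to between 3 and 5 with the median at -0.33, leaving out a whole repeat gave 3 to 6, and the lowest and highest medians over all of these were -0.47 and -0.21. The part that the high values on inhibitor control arrays 2 and 3 play in the difference was not tested.

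**Figure D3:**
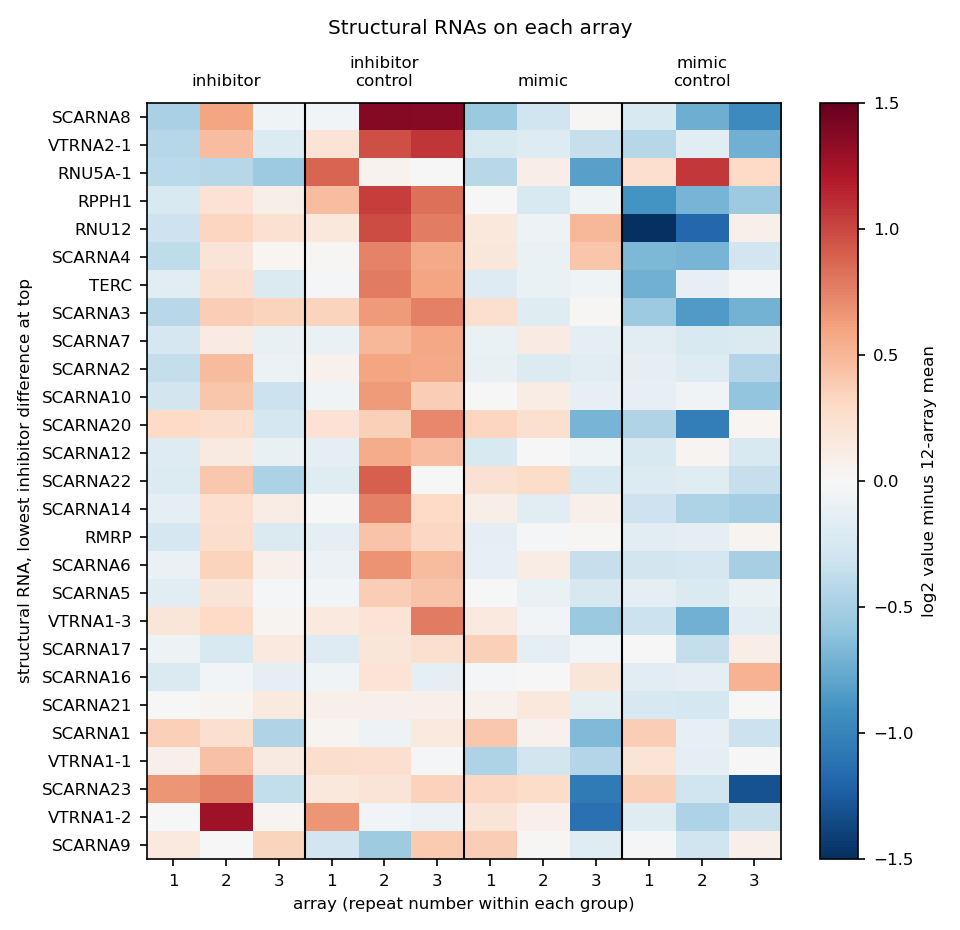
Log2 value minus the 12-array mean (colour, red higher and blue lower) of the 27 structural RNAs (rows, ordered by the inhibitor difference) on each of the 12 arrays (columns, 3 repeats in each of 4 groups). Inhibitor control arrays 2 and 3 are the reddest columns, with medians of 0.619 and 0.519 over the bright members.

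Named genes were taken where a bright probe set passed an unadjusted p under 0.05 with and without the block, had the same sign on each occasion and had groups without overlap. 10 genes met this upward and 9 downward, out of 18 and 16 named bright calls, and each had an adjusted p of 1.0. Of all 16056 bright probe sets, 8595 of them without a name, 0.835% were called and 5.15% had groups without overlap. The smallest and largest differences were 0.34 and 0.59 upward, and the downward ones ran from -0.34 to -0.75, the latter being RPPH1. Since the same values chose the genes and describe them, the separation of their groups is no further evidence.

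The highest was MIR4530, at 6.37, 6.13 and 6.18 with the inhibitor and 5.63, 5.65 and 5.62 with the control, a difference of 0.59 (0.28 to 0.90). DGCR6L, of the DiGeorge region on chromosome 22, read 6.17, 6.35 and 6.37 against 5.98, 5.71 and 5.54, a difference of 0.55 (0.24 to 0.87), and its near-identical neighbour DGCR6 may share its probes. C20orf96, a gene without an assigned function, read 6.73, 6.53 and 6.72 against 6.23, 5.95 and 6.21, a difference of 0.53. All 3 sets of values were therefore separate, with the narrowest gap for DGCR6L. KDSR, which reduces ketodihydrosphingosine in ceramide synthesis, read 7.24, 7.12 and 7.21 against 7.10, 6.47 and 6.86. Its lowest inhibitor value of 7.12 lay just above the highest control value of 7.10. The difference in means of 0.38 (0.01 to 0.75) rests on a spread-out control. KLHL20, a substrate adaptor of cullin ubiquitin ligases, differed by 0.35, with control values of 7.53, 7.31 and 7.26 below inhibitor values of 7.73, 7.73 and 7.68. MTRES1, a mitochondrial RNA-binding protein, differed by 0.34 and read 7.88, 7.98 and 8.02 against 7.71, 7.48 and 7.67. The other upward genes were the antisense transcript CCDC18-AS1 (0.47), the RING-finger gene RNF24 (0.37), MIR4663 (0.37) and BTBD3 (0.34).

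Among the downward genes MIR4294 differed by -0.50 (-0.82 to -0.19), from 6.43, 6.77 and 6.57 with the control to 5.97, 6.12 and 6.17. GALNT2, which starts mucin-type O-glycans and is a known lipid locus, read 7.62, 7.76 and 7.41 against 7.89, 8.20 and 7.98, a difference of -0.42 (-0.83 to -0.01). ZNF765, a zinc-finger gene, read 5.78, 5.93 and 5.76 against 6.15, 6.34 and 6.23, also a difference of -0.42. The values of these genes were separate on every array, and ZNF765 differed by -0.38, -0.42 and -0.47 on the 3 occasions. CCER2 (-0.44), the homeobox gene OTP (-0.42), RRN3P3 (-0.39), RTN4RL1 of the Nogo receptor family (-0.36) and the G-protein regulator RGS12 (-0.34) completed the set. RRN3P3 is a pseudogene of the RNA polymerase I factor RRN3, and the array may not separate it from its parent.

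**Figure D4:**
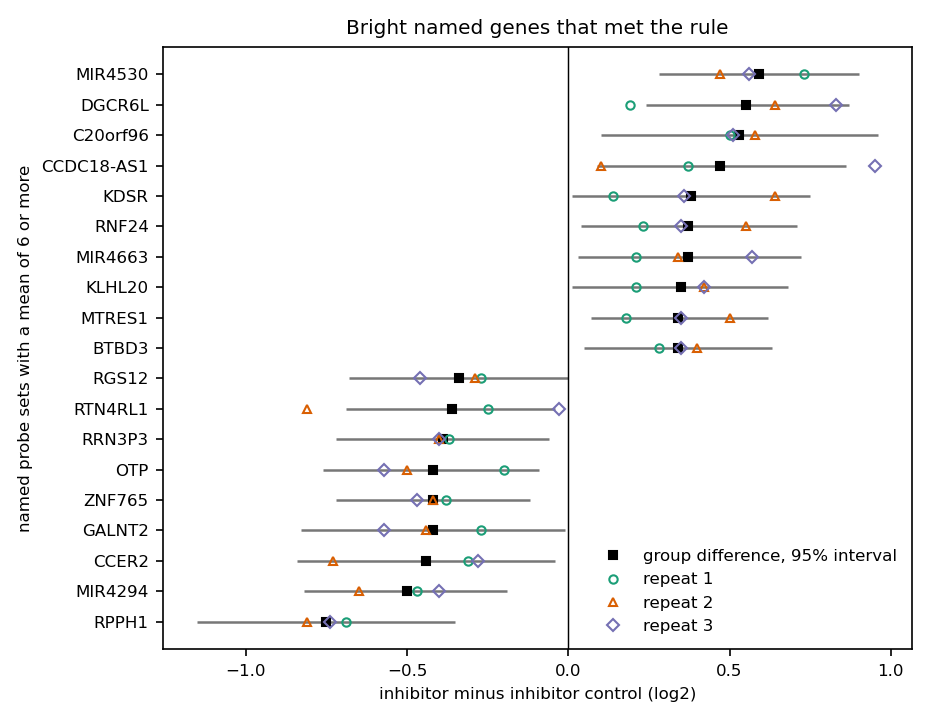
Difference between inhibitor and inhibitor control (log2) for the 19 bright named genes that met the rule, as the group difference with its 95% interval (squares) and the difference on each occasion (open symbols). Occasions spread widely for some genes, from 0.19 to 0.83 for DGCR6L, and RPPH1 is the lowest gene at -0.75.

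Of these 19 genes, RPPH1 and MIR4530 kept their unadjusted calls under all 26 alternatives tried, and MIR4294 and DGCR6L lost theirs only without repeat 2. KDSR lost its call under 15 alternatives, RGS12 under 12, KLHL20 under 11, and GALNT2 and MIR4663 under 9. Leaving out any 1 of the 6 arrays removed 3 to 15 of the 34 named calls considered. With the mimic 14 of the 19 differed in the opposite direction. The share of all bright probe sets with opposite signs is not given here. Bright protein-coding probe sets as a whole had medians of 0.056 with the inhibitor and -0.056 with the mimic.

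Among dim probe sets 92 named ones met the same rule upward and 132 downward, of 119 and 164 named calls. Of all 37561 dim probe sets, 28771 of them without a name, 3.82% were called and 9.22% had groups without overlap. The 5 largest upward were MIR1261 (1.21), MIR4798 (0.99), the pseudogene LOC100132781 (0.98), MIR518D (0.95) and the kinesin gene KIF27 (0.90). The 5 largest downward were SIMC1P1 (-1.03), MIR3188 (-0.91), GAGE10 of a cancer-testis antigen family (-0.85), the epidermal gene LCE1A (-0.84) and the hair keratin-associated gene KRTAP1-1 (-0.82). MIR4798 read 4.98, 4.49 and 4.36 with the inhibitor and 3.69, 3.74 and 3.43 with the control (0.59 to 1.38). MIR1261 read 2.91, 3.43 and 3.48 against 1.62, 2.57 and 2.00, and MIR3188 read 3.16, 4.27 and 3.26 against 4.51, 4.30 and 4.60. Neither pair of groups overlapped, but for MIR3188 the highest inhibitor value of 4.27 lay just under the lowest control value of 4.30. Members of the GAGE and keratin-associated families can share probes.

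Mature sequences of the microRNA genes named by the rule, except MIR4294 and MIR4663, are given for comparison with the seed of miR-1908-5p. Their own seeds are in capitals (RefSeq, GRCh38.p14).
hsa-miR-4530: cCCAGCAGgacgggagcg
hsa-miR-1261: aUGGAUAAggcuuuggcuu
hsa-miR-4798-5p: uUCGGUAUacuuugugaauugg
hsa-miR-4798-3p: aACUCACGaaguauaccgaagu
hsa-miR-518d-5p: cUCUAGAGggaagcacuuucug
hsa-miR-518d-3p: cAAAGCGCuucccuuuggagc
hsa-miR-3188: aGAGGCUUugugcggauacgggg
None of the sequences shown here carries the seed GGCGGGG, and those of MIR4294 and MIR4663 are not shown. Names of microRNA probe sets here are those of the genes, which leaves unsaid whether precursor or mature RNA was read.

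Markers of cell identity were checked in the same way. All 21 named hepatocyte markers were bright and none was called, with a median of 0.013. ALB (albumin) differed by 0.01 and AFP, the fetal albumin relative that hepatoma lines express, by -0.01. CYP2B6 (0.37) and APOA1 (-0.26) were the extremes. Of 21 markers of other cell types 13 were named and 7 bright, and none was called without the block. KRT19, a bile duct keratin, differed by -0.41 and passed only with the block, and KDR, an endothelial receptor, differed by -0.40. In bulk RNA a change in the number of cells that express a gene and a change in RNA per cell cannot be told apart.

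**Figure D5:**
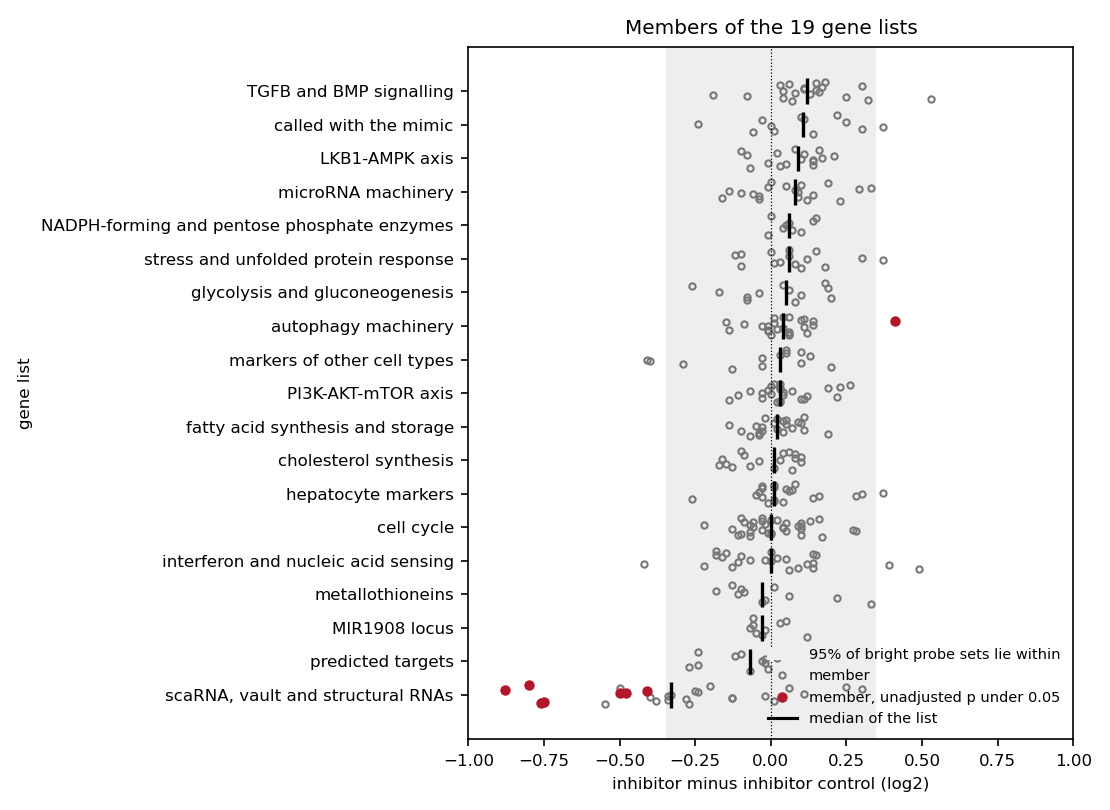
Difference between inhibitor and inhibitor control (log2) for each named member of the 19 gene lists, ordered by list median (black bars), with the range that holds 95% of bright probe sets shaded. Filled points are the members at an unadjusted p under 0.05: 7 structural RNAs below 0 and MAP1LC3B at 0.41.

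The response to the inhibitor was also set against the response to the mimic, which uses separate control arrays. In limma no probe set differed between the responses at an adjusted p under 0.05, and 2276 (4.24%) did at an unadjusted one. Array medians ran from 4.992 to 5.147 and array SDs from 1.947 to 2.06, and the number of arrays limits the precision of every value given here.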

How the data were processed

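RNA from 12 HuH-7 cultures was hybridized to HuGene-2_0-st arrays. The deposited values are log2 signals, 1 per probe set and array, that the authors normalized in Affymetrix Expression Console (version and settings not given in the sources used here). They were used without further scaling.

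Of 53617 probe sets, 16098 were named by the platform annotation and 153 by the study's tables alone. The other 37366 were left without a name, 10 of them because the tables gave several symbols. A model of 4 groups over 12 arrays was fitted in limma 3.58.1 (R 4.3.3, statmod 1.5.0), checked on simulated data, and p-values were adjusted by Benjamini-Hochberg across the whole array. The simulated arrays varied independently with no shared occasion, so the check does not cover the correlation of same-numbered arrays. Intervals are 95%. The methods' two-tailed t-test, as an alternative, was run on the same values.

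The series' design text gives 3 distinct occasions, so the repeat number was used as a block. Deviations of same-numbered arrays correlated at 0.225, 0.0981 and 0.275 over all probe sets and at 0.576, 0.414 and 0.694 over bright ones. Different numbers gave -0.221 to 0.0229 over all and -0.572 to 0.00775 over bright ones. Deviations were taken from the mean of each group of 3 arrays, so positive values for same numbers force some negative ones for different numbers.

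Genes named are probe sets passing after adjustment, up to 12 bright and 5 dim ones per direction with the largest difference under the rule stated with the results, up to 4 members per list and genes the study names. RNAs and genes listed beyond these were chosen after their values were seen. The members and the 19 lists were chosen with earlier results of these data known. The primary hepatocyte arrays were not analysed here.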

Additional observations from a re-analysis of the deposited data

Results flagged for a closer look

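For 11 of the named genes every occasion moved one way with the inhibitor and the opposite way with the mimic, and the difference between the responses was at an unadjusted p under 0.05. Given as the inhibitor response minus the mimic response on the log2 scale, it was 1.49 for LOC100132781, 1.42 for KIF27, 1.18 for MIR4798, 0.95 for C20orf96, 0.87 for MIR4530, 0.65 for DGCR6L, 0.63 for KLHL20 and 0.53 for MTRES1. It was -1.68 for SIMC1P1, -1.37 for RPPH1 and -0.65 for ZNF765. None passed after adjustment over all probe sets, with the lowest adjusted p at 0.655 for RPPH1 and the highest at 0.998. All of these genes had been chosen for their inhibitor values, so their inhibitor direction is no independent observation. Those values are also part of the difference between the responses. Its size and unadjusted p in these genes are therefore no independent evidence either. Over all probe sets 4.24% had a difference between the responses at an unadjusted p under 0.05. The share of all probe sets that moved in opposite ways on every occasion is not given here. For RPPH1 the inhibitor control was the highest of the 4 groups (7.64) and the mimic control the lowest (6.15), while inhibitor and mimic arrays stood at 6.90 and 6.78.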

How the results depend on the processing

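The count of probe sets after adjustment, 1 in the main model, was 0 with the replicate block, with only the 6 arrays compared, with both of these together, without dim probe sets, with only probe sets of 1 symbol, with an intensity trend and robust prior, with the methods' t-test and, in an alternative chosen after seeing the data, without identifiers below the lowest annotated one. It stayed at 1 with the block as a random effect, after a further quantile normalization, with the arrays at a common median and with array weights. It was 0 to 2 when single arrays or repeats were left out. A fold over 1.3 with the same sign in all 3 repeats, used in place of a test, took 3195. The unadjusted count of 1567 became 2418 with the replicate block, 2947 with the block on 6 arrays, 173 without dim probe sets and 403 with 1 symbol, and 1070 to 2478 on leaving arrays out. For bright probe sets 134 became 312 with the block, 230 with the block as a random effect, 388 with the block on 6 arrays, 49 with 1 symbol, 338 with the t-test, 430 and 46 with bright set at 5 and 7, and 59 to 417 on leaving arrays out. For dim ones 1433 became 2559 with the block on 6 arrays and 354 with 1 symbol, and 1011 to 2061 on leaving arrays out. Between the responses 0 became 1 without dim probe sets or with 1 symbol, and 0 to 1 on leaving arrays out. No called named gene changed direction under the alternatives. Several of these counts are out of other totals than in the main model. Leaving out dim probe sets leaves 16056. The setting with 1 symbol leaves the 16098 named by the platform annotation and the 153 named by the study's tables. Bright set at 5 takes 27185 probe sets (1.58% called) and at 7 takes 9176 (0.501%). Counts from these settings are therefore not directly comparable with the main ones. The cause of the shifts was not tested. The replicate block changed no other call of the list counts than those given with the results. With 3 arrays per group, the median standard error of a bright difference was 0.186 unpaired and 0.145 with the block.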

Other observations

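Gene classes were set apart after their values were seen, and no difference between classes was tested. Of 1042 dim probe sets for microRNA genes 33 were higher and 9 lower with the inhibitor at an unadjusted p under 0.05, while of 5955 dim protein-coding ones 51 were higher and 115 lower. Among bright ones the counts were 2 and 1 of 194 for microRNA genes and 14 and 7 of 6852 for protein-coding genes. With the repeat block the dim counts were 46 and 20 for microRNA genes and 90 and 167 for protein-coding genes. The dim share called was 4.03% for microRNA genes and 2.79% for protein-coding genes, beside 3.82% over all dim probe sets. Dim long noncoding RNAs gave 22 higher and 21 lower, and dim probe sets without a name 567 and 583. None of the named probe sets in these classes passed after adjustment.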
